A study of Homo sapiens with 24 samples.

Results

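The genes PVT1, CCAT1, CASC8, CASC11 and CASC19 are long noncoding RNA genes that lie around MYC on chromosome 8. They were chosen by name and make up 5 of the 58051 gene identifiers in the count files. All 5 were matched by their Ensembl identifiers. Their RNA was followed in the colorectal cancer cell lines HT29, HCT116 and SW480, in clones with an intact CTNNB1 gene (WT) and in clones in which CTNNB1 was knocked out (KO). CTNNB1 encodes β-CATENIN, the transcriptional effector of the WNT pathway. In each line a mutation keeps the pathway switched on: HT29 and SW480 have lost the function of APC, a negative regulator of β-CATENIN, and HCT116 has an activated form of β-CATENIN.

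KO clones carried a deletion of CTNNB1 exon 7 on both alleles, made with CRISPR/Cas9. The controls were not the parental lines but sister clones from the same editing experiments that came out unedited at CTNNB1. Each line had 2 WT and 2 KO clones, and each clone was sequenced in the rounds A and B, which gave 24 libraries and 4 libraries per group. The WT clones were 11 and 40 (HT29), 4 and 6 (HCT116) and 4 and 5 (SW480). The KO clones were 28 and 38 (HT29), 44 and 47 (HCT116) and 17 and 21 (SW480). With 2 clones per genotype, p-values across libraries measure the spread between these clones and their rounds.

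MYC encodes a transcription factor that drives cell growth and is a known target of β-CATENIN. It stands in a region with few protein-coding genes and many long noncoding RNAs, several of which are raised in colorectal tumors. The region also holds enhancers that contact the MYC promoter, and the noncoding RNAs are transcribed from and across these enhancers. PVT1 lies downstream of MYC, is often amplified together with it and hosts several microRNAs. CCAT1 is named for its high level in colon cancer, and CASC8, CASC11 and CASC19 are named as cancer susceptibility transcripts.

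In GRCh37 coordinates, CASC19 spans 128084939 to 128239786 of chromosome 8 on the minus strand, 508 kb from MYC. CASC8 spans 128302053 to 128494384 on the minus strand, 253 kb from MYC. CASC11 spans 128698588 to 128751233 on the minus strand and overlaps the 5′ part of MYC, which spans 128747680 to 128755197 on the plus strand. PVT1 spans 128806772 to 129199347 on the plus strand and begins 51.6 kb after the end of MYC. CCAT1 has no entry in the annotation used here and is reported without a position. It comes between CASC19 and CASC8 in RefSeq's gene order. Whether it overlaps the span of CASC19 given here was not checked.

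**Figure D1:**
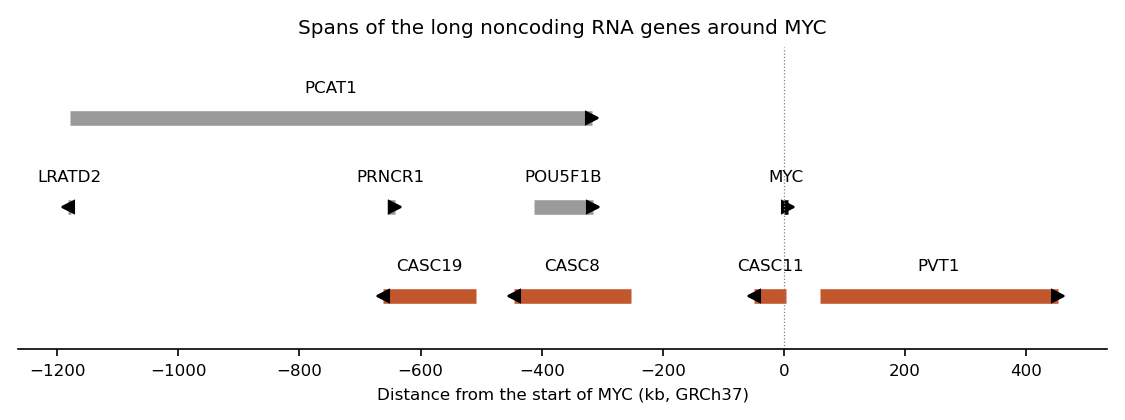
Gene spans in GRCh37 as distance from the start of MYC in kb, with the long noncoding RNA genes in orange, MYC in black, neighboring genes in grey and arrowheads at the 3′ ends. CASC19 and CASC8 lie upstream of MYC, CASC11 overlaps MYC on the other strand and PVT1 lies downstream. CCAT1 is not drawn because the annotation gives it no position.

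In the annotation used here for positions, several of these genes share sequence with a gene on the other strand. The annotation release and strand setting used for counting are not given in the sources used here, so the counted gene models may differ. CASC11 overlaps MYC by 3554 bases, including 4 pairs of overlapping exons. CASC19 overlaps PRNCR1 with 2 exon pairs, and PVT1 overlaps the small nuclear RNA pseudogene RNU1-106P on the same strand. CASC8 spans POU5F1B and CCAT2, which lie on the other strand and share no exon with it. Where the counted gene models share these exons, reads in them could not be assigned to either strand.

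Recovered reads per library ran from 22297049 to 29068378. CTNNB1 RNA fell to 4.98% of the WT mean in HT29, 1.83% in HCT116 and 2.18% in SW480, and the libraries matched their labels. Of 10 epithelial genes, EPCAM, CDH1, KRT8, KRT18 and KRT19 were above 3 reads in all 24 libraries. CDX1 was at 3 reads or fewer in every HCT116, SW480 and HT29 WT library, and LGALS4 in every HCT116 library. KRT20 was between 58.2 and 104 normalized counts (defined below) in HCT116 WT libraries and at 3 reads or fewer in HCT116 KO libraries. In HT29 KRT20 was between 1542 and 5791 in WT and between 9565 and 21316 in KO libraries. CDX2 was between 857 and 1333 in SW480 WT and between 52.7 and 165 in SW480 KO libraries. The limma test described below called 3 of 8 tested epithelial genes higher and 0 lower in HT29 KO libraries. It called 2 of 7 higher and 2 lower in HCT116, and 0 of 7 higher and 2 lower in SW480. Over all tested genes it called 2.56%, 14.0% and 48.1% in these lines. The rounds of HT29 KO clone 38 differed more than those of other clones, with a chi-square per gene of 221 against 4.64 to 40.6 in the other 11 clones. Values below are reads divided by the size factor of the library (normalized counts), and they are not corrected for gene length, so that levels are compared between libraries and not between genes.

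Of the noncoding RNAs, PVT1 and CASC8 were measurable in each line. CCAT1 and CASC19 were measurable in HT29 and HCT116, and CASC11 only in SW480, where a gene was taken as measurable in a line if 4 or more of its 8 libraries reached a normalized count of 10. CCAT1 in SW480 gave 5 reads over the 4 WT libraries and 2 over the 4 KO libraries. CASC19 in SW480 gave 1 and 3 reads. All 8 SW480 libraries had 3 reads or fewer of either gene, which is too low to read a KO effect. CASC11 held normalized counts from 0 to 10.4 in HT29 and from 0 to 7.34 in HCT116, and was not tested there.

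**Figure D2:**
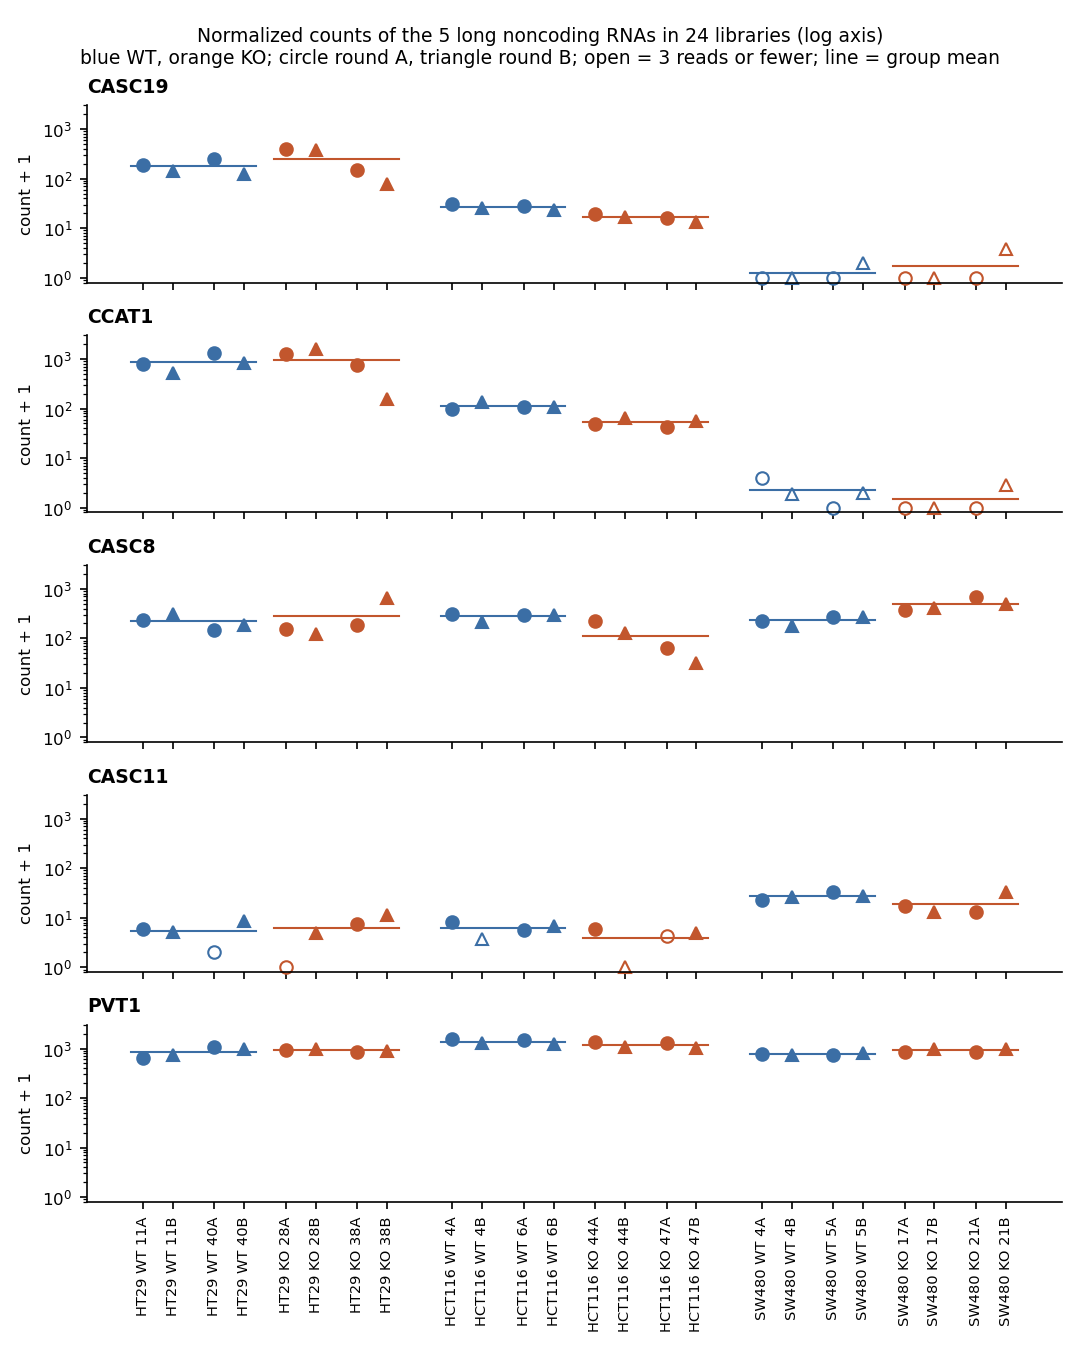
Normalized count plus 1 on a log axis for each of the 24 libraries, grouped by line and clone, with WT in blue, KO in orange, round A as circles, round B as triangles and group means as lines. Open symbols had 3 reads or fewer. CCAT1 and CASC19 are highest in HT29 and near 0 in SW480, while PVT1 stays between 656 and 1544 in all libraries.

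In WT clones CCAT1 and CASC19 had the same order of lines, with HT29 above HCT116 above SW480. CCAT1 was at 867 ± 332 normalized counts in HT29 and 112 ± 16.6 in HCT116 (SD, n = 4 libraries each), a difference of −2.87 for HCT116 minus HT29 on the log2 scale (limma, adjusted p = 8.39e-05). CASC19 was at 176 ± 56.3 in HT29 and 26.0 ± 3.04 in HCT116, a log2 difference of −2.66 (limma, adjusted p = 3.83e-05). In SW480 WT libraries both were at the floor. By summed reads CCAT1 was 720 times higher in HT29 WT than in SW480 WT libraries (exact 95% interval 308 to 2218, counting error only), and 92.9 times higher in HCT116 WT libraries (39.5 to 287). For CASC19, with a single SW480 WT read, these ratios were 739 (132 to 29234) and 108 (18.9 to 4292).

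WT levels of PVT1 were highest in HCT116, at 1375 ± 151, against 866 ± 207 in HT29 and 768 ± 38.5 in SW480. On the log2 scale HCT116 exceeded HT29 by 0.69 (limma, adjusted p = 1.95e-04), and SW480 minus HCT116 was −0.83 (limma, adjusted p = 1.99e-05). HT29 and SW480 did not differ beyond their spread, with an interval of the SW480 minus HT29 difference from −0.43 to 0.15. CASC8 ran at 219 ± 72.1 in HT29, 279 ± 42.7 in HCT116 and 236 ± 43.4 in SW480, and no pair of lines passed the test. CASC11 was at 26.6 ± 3.98 in SW480 WT libraries, 4.34 ± 2.68 in HT29 and 5.11 ± 1.91 in HCT116. It passed the low-value filter of the line comparisons almost only through SW480 libraries, where it is highest. Tests of these levels were therefore not read. These line comparisons called 58.4% of all tested genes between HT29 and HCT116, 60.3% between HT29 and SW480 and 60.5% between HCT116 and SW480.

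CCAT1 was the member called in HCT116. The unadjusted limma p was under 0.05 for 3 members there, as for 4553 of the 15404 genes tested. The HCT116 WT libraries held 98.2 and 136 normalized counts in clone 4 and 107 and 108 in clone 6. The KO libraries held 47.2 and 62.2 in clone 44 and 41.7 and 56.1 in clone 47. Every KO library was below every WT library, where 20.5% of all tested genes had WT and KO libraries without overlap. Both KO clones fell alike, to 48.7% and 43.6% of the WT mean. The difference of −1.11 on the log2 scale (SE 0.21, 95% interval −1.56 to −0.65) passed the test (limma, adjusted p = 0.00519). In bulk RNA, fewer expressing cells and less RNA per cell cannot be told apart. Of the 4 members tested in HCT116 this 1 was called, beside 14.0% of all tested genes and 5.93% called as lower in KO. It was also the sole member with an absolute log2 fold change over 1 among those called, which 5.06% of all tested genes were. With clone means as the units, 2 against 2, the call was lost (−1.10, limma, adjusted p = 0.0905).

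CASC19 was also lower in every HCT116 KO library. WT libraries held 29.4 and 24.1 in clone 4 and 27.7 and 22.8 in clone 6. KO libraries held 18.7 and 16.0 in clone 44 and 15.0 and 12.4 in clone 47. Although the groups did not overlap, as for 20.5% of all tested genes, the difference of −0.72 (95% interval −1.30 to −0.14) missed the threshold (limma, adjusted p = 0.0963). Per library 13 to 32 reads of CASC19 stood behind these values.

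CASC8 in HCT116 differed between the KO clones. WT libraries held 313 and 216 in clone 4 and 289 and 296 in clone 6. KO clone 44 held 226 and 130, so that its round A library overlapped the WT range, and KO clone 47 held 64.2 and 30.5. Clone 44 was at 63.9% of the WT mean and clone 47 at 17.0%. The difference between them was −1.93 (SE 0.36, limma, adjusted p = 0.0113), a comparison in which 7.16% of all tested genes were called. KO against WT gave −1.65 (95% interval −2.80 to −0.49) and missed the threshold (limma, adjusted p = 0.0634). Without the clone 44 libraries the difference was −2.61 and without those of clone 47 it was −0.68, each with 1 KO clone left. Without 44A alone it was −2.10 and passed the test (limma, adjusted p = 0.00969).

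PVT1 in HCT116 differed more between rounds than between genotypes. WT libraries held 1544 and 1458 in round A and 1271 and 1227 in round B, and KO libraries held 1340 and 1293 in round A and 1064 and 1010 in round B. Round A was above round B in all 4 clones, and 62.6% of the sum of squares of PVT1 lay between the rounds of a clone. Within each round every KO library was below every WT library, a separation whose share over all tested genes was not counted. Over both rounds the groups overlapped, whereas those of 20.5% of all tested genes did not. The genotype difference was −0.23 (95% interval −0.51 to 0.05) and was not called (limma, adjusted p = 0.263; with the round as a block, 0.111).

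In SW480 the member that moved most was CASC8, and it moved up. WT libraries held 227 and 177 in clone 4 and 268 and 269 in clone 5. KO libraries held 372 and 403 in clone 17 and 685 and 498 in clone 21. The groups did not overlap, as for 46.2% of all tested genes. CASC8 was 2.08 times its WT mean in KO libraries, with a log2 difference of 1.03 (SE 0.20, 95% interval 0.58 to 1.48, limma, adjusted p = 0.00192), and was called under all 22 alternatives. Clone 21 was higher than clone 17 by 0.59 (limma, adjusted p = 0.00928), where 28.0% of genes differed between these clones.

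PVT1 rose slightly in SW480. WT libraries held 787 and 750 in clone 4 and 725 and 811 in clone 5. KO libraries held 853 and 966 in clone 17 and 845 and 998 in clone 21, all above the WT libraries. In SW480 46.2% of all tested genes had WT and KO libraries without overlap. The KO mean was 119% of the WT mean, a log2 difference of 0.25 (SE 0.08, limma, adjusted p = 0.0278). The call was lost with the clone as a random effect (adjusted p = 0.157), on clone means (0.168), without the filter on low values (0.0732), and without WT 4B (0.0692), WT 5A (0.0749), KO 17B (0.0716) or KO 21B (0.0793). It was also lost without WT clone 4 (0.113) or WT clone 5 (0.0964).

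CASC11, measurable in SW480 alone, did not pass the test. WT libraries held 22.2 and 25.7 in clone 4 and 31.9 and 26.4 in clone 5. KO libraries held 16.0 and 11.9 in clone 17 and 12.1 and 31.7 in clone 21. Of the KO libraries 3 lay below the WT range, and 21B lay at its upper end. The difference was −0.64 (95% interval −1.35 to 0.07, limma, adjusted p = 0.122), and it was −0.94 without 21B (adjusted p = 0.0149). In the annotation used here for positions, CASC11 shares exons with MYC on the other strand, but the gene models used for counting are not known. MYC fell in the same libraries, also in 21B, where it was at 3758. The part of MYC reads in the values of CASC11 was not tested.

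Of the 3 members tested in SW480, 2 were thus called and both were higher in KO, beside 48.1% of all tested genes called and 26.1% called as higher. Markers of other cell types also differed in SW480. The summed leukocyte markers were between 52.4 and 69.7 in WT libraries and between 173 and 254 in KO libraries. The summed endothelial markers were between 9.65 and 27.4 in WT and between 116 and 234 in KO libraries. The leukocyte marker PTPRC and the endothelial marker CDH5 were at 3 reads or fewer in all 8 SW480 libraries. The summed fibroblast markers were between 149 and 398 in WT and between 127 and 192 in KO libraries. Within this list COL1A2 was between 40.4 and 122 in WT libraries and at 3 reads or fewer in all KO libraries, while LUM was at 0 in WT and between 5.64 and 50.4 in KO libraries. The part of these markers, among them CD14 and VWF, in the values of CASC8 and PVT1 was not tested.

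**Figure D3:**
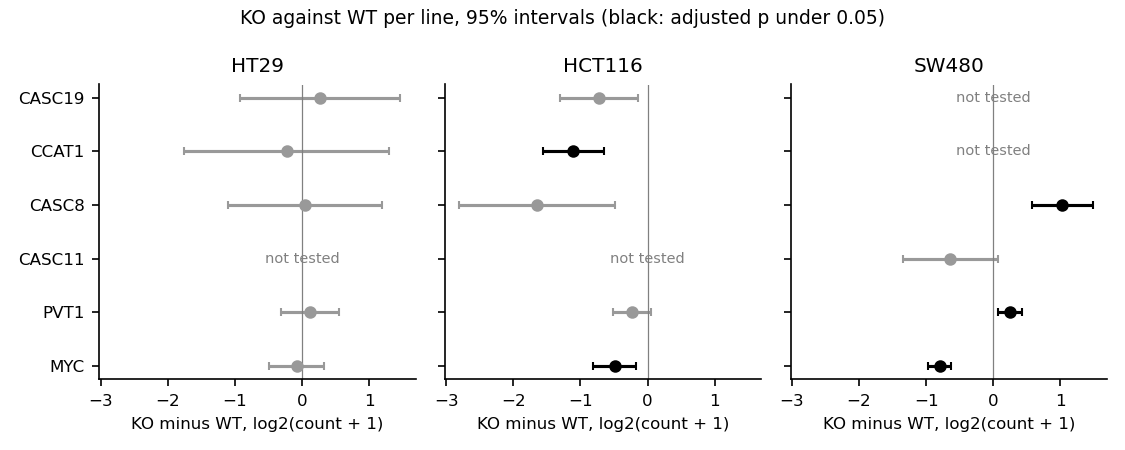
KO minus WT differences of log2(normalized count + 1) with 95% intervals for each member and MYC in the 3 lines, in black where the adjusted p was under 0.05 and in grey otherwise. CCAT1 was lower in HCT116 KO clones and CASC8 was higher in SW480 KO clones, whereas all HT29 intervals include 0.

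In HT29 none of the 4 members tested was called, beside 2.56% of all tested genes. The unadjusted limma p was under 0.05 for 0 members in HT29 as well, and edgeR and DESeq2 also called 0. CCAT1 held 775 and 531 in WT clone 11 and 1323 and 839 in WT clone 40. In KO clone 28 it held 1275 and 1622, and in KO clone 38 it held 766 and 153. The KO clones therefore lay on either side of the WT mean, at 167% and 53.0% of it. KO against WT gave −0.23, with an interval from −1.76 to 1.30 that includes the HCT116 value (limma, adjusted p = 0.889). Without KO 38B the difference was 0.50.

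CASC19 followed CCAT1 across the HT29 clones. WT libraries held 185 and 141 in clone 11 and 251 and 125 in clone 40. KO clone 28 held 396 and 381, above all WT libraries, while KO clone 38 held 149 and 76.5. Clone 38 was lower than clone 28, with a log2 difference of −1.85 (SE 0.41, limma, adjusted p = 0.0220), as 16.0% of all tested genes differed between these clones. For CCAT1 the same difference was −2.07 and missed the threshold (limma, adjusted p = 0.0674). KO against WT of CASC19 was 0.27 (95% interval −0.92 to 1.46, limma, adjusted p = 0.826), and −0.66 without clone 28.

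CASC8 ran opposite to CCAT1 in HT29. WT libraries held 231 and 313 in clone 11 and 145 and 185 in clone 40. KO clone 28 held 151 and 121, and KO clone 38 held 187 and 647. The 38B library had both the highest CASC8 and the lowest CCAT1 and CASC19 counts of the line. Across the 8 HT29 libraries the Pearson correlation of log2 values was −0.99 between CCAT1 and CASC8 and 0.88 between CCAT1 and CASC19. Without 38B these were −0.96 and 0.86. In the 8 HCT116 libraries the correlation of CCAT1 with CASC8 was 0.65. These are descriptions over libraries that share clones, rounds and size factors. KO against WT of CASC8 was 0.05 (95% interval −1.10 to 1.19, limma, adjusted p = 0.975).

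**Figure D4:**
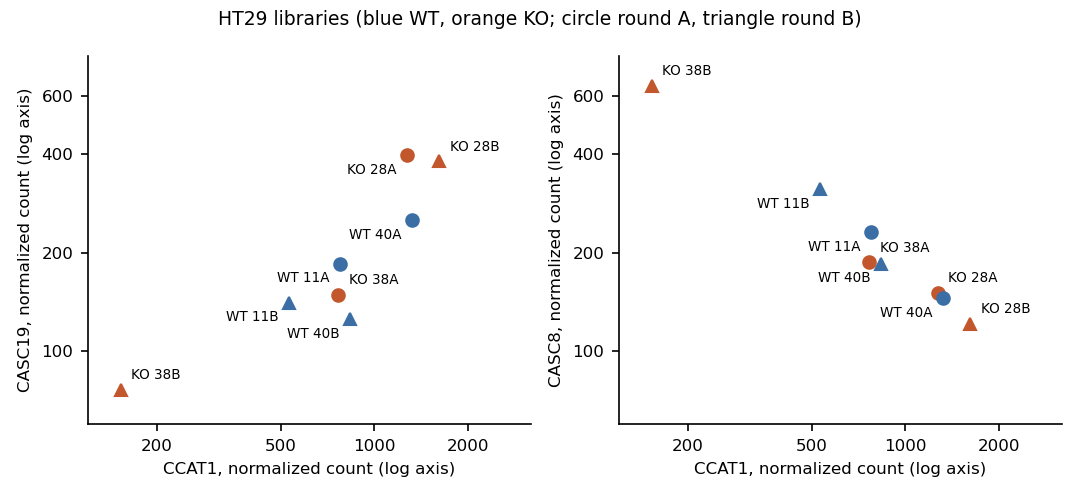
Normalized counts of CCAT1 (x axis, log) against CASC19 and CASC8 (y axes, log) in the 8 HT29 libraries, with WT in blue and KO in orange. CASC19 rises and CASC8 falls along CCAT1, WT and KO libraries are intermixed, and KO 38B stands at one end of both plots.

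PVT1 in HT29 varied mainly between the WT clones. WT clone 11 held 656 and 728, and WT clone 40 held 1085 and 997. The KO libraries held 952 and 964 in clone 28 and 862 and 907 in clone 38, all between the WT clones. The WT clones differed by 0.59 (limma, adjusted p = 0.0807), which missed the threshold that 9.02% of all tested genes passed. Between clones of the same genotype lay 87.9% of the sum of squares, and 6.86% lay between genotypes. KO against WT was 0.12 (95% interval −0.32 to 0.55, limma, adjusted p = 0.784).

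Fibroblast markers also differed in HT29, with sums between 13.2 and 23.0 in WT libraries and between 109 and 1210 in KO libraries. This was mostly LUM, whereas COL1A2 and DCN were at 3 reads or fewer in all 8 libraries. The part of LUM in the values of HT29 was not tested.

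The KO effects were then compared between lines. CASC8 was the member whose effect differed, by 2.68 (SE 0.67, 95% interval 1.29 to 4.07) between SW480 and HCT116 (limma, adjusted p = 0.00845), a comparison that called 13.2% of all tested genes. The effect in SW480 was upward in both clones and the value in HCT116 was downward in both clones. The CASC8 effect in HCT116 minus that in HT29 was −1.69 (limma, adjusted p = 0.138), and −2.15 without HCT116 KO 44A (adjusted p = 0.0450), where 7.25% of all tested genes were called. The CASC8 effect in SW480 minus that in HT29 was 0.98 (95% interval −0.41 to 2.38). For CCAT1 the HCT116 minus HT29 difference was −0.88, with an interval from −2.46 to 0.70, so that a different response in these lines was not shown. For CASC19 it was −0.98 (−2.36 to 0.39). For PVT1 the largest difference was 0.48, between SW480 and HCT116 (0.07 to 0.89, limma, adjusted p = 0.126).

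MYC itself was not called in HT29, where it averaged 6709 ± 661 in WT and 6446 ± 1471 in KO libraries (log2 difference −0.08, 95% interval −0.48 to 0.33). In HCT116 it fell from 12384 ± 2304 to 8783 ± 1280 (−0.49, limma, adjusted p = 0.0449; with the round as a block, 0.0515), a call that held in 12 of 22 alternatives and was lost without KO clone 44 (−0.31) or WT clone 6 (−0.26). In SW480 it fell from 6108 ± 426 to 3507 ± 239 (−0.80, limma, adjusted p = 1.12e-05). The effect in SW480 differed from that in HT29 by −0.72 (limma, adjusted p = 0.0177), where 15.8% of all tested genes differed. In SW480 MYC was therefore lower in the same KO libraries in which CASC8 and PVT1 were higher. In HCT116, in contrast, both MYC and CCAT1 were lower. The HCT116 WT clones also differed in MYC, by 0.46 (clone 6 minus clone 4, limma, adjusted p = 0.0459). In that clone comparison 402 of 15404 tested genes were called.

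The ratio of PVT1 to MYC reads was higher in SW480 KO libraries. It was 0.126 ± 0.00786 in WT and 0.261 ± 0.00826 in KO libraries (SD, n = 4), and ran from 0.117 to 0.134 and from 0.249 to 0.266. The groups were far apart. In HT29 the ratio was 0.129 ± 0.0254 and 0.149 ± 0.0335, and in HCT116 it was 0.114 ± 0.0278 and 0.137 ± 0.0321, with overlapping libraries in both lines. The ratio is not corrected for length and is read for its change alone. It shows unequal change of both RNAs and alone does not tell how much of it came from either. By normalized counts in SW480, MYC changed by −0.80 and PVT1 by 0.25 on the log2 scale, so that the fall of MYC was the larger part. The PVT1 call held in 13 of 22 alternatives.

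**Figure D5:**
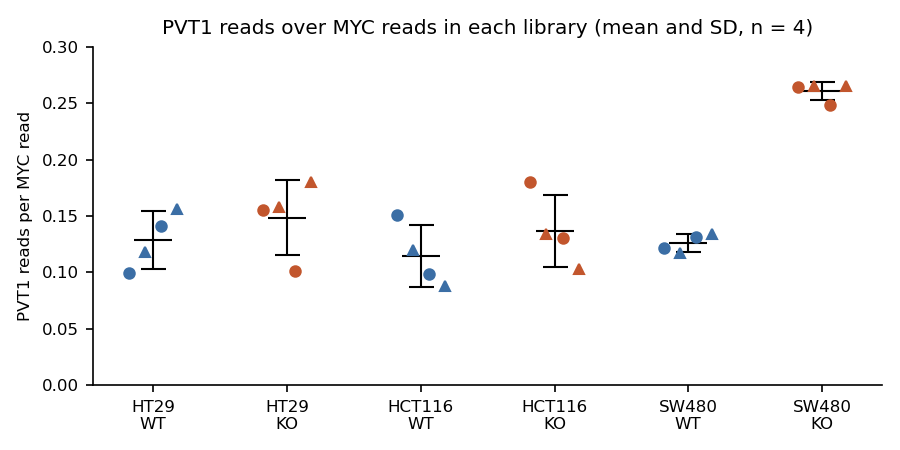
PVT1 reads per MYC read in each library by line and genotype, with circles for round A, triangles for round B and bars for mean and SD (n = 4). The SW480 KO libraries lie between 0.249 and 0.266, above the highest value of 0.180 in any other group.

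Of the 27 other genes in the files within 1500000 bases of MYC, MYC included, 4 were measurable in each line, but not the same 4. They were LRATD2, MYC, PCAT1 and RNU1-106P in HT29, and LINC00861, LRATD2, MYC and PRNCR1 in HCT116. In SW480 they were LINC00861, LRATD2, MYC and RNU1-106P. The test called 0, 3 and 4 of them in HT29, HCT116 and SW480, beside 2.56%, 14.0% and 48.1% of all tested genes. Apart from MYC, 3 genes passed the test in at least 1 line. LINC00861, a long noncoding RNA gene at the upstream edge of this window, fell from 28.1 ± 10.6 to 2.65 ± 4.68 in HCT116 (limma, adjusted p = 0.00596) and from 104 ± 17.1 to 7.74 ± 3.41 in SW480 (limma, adjusted p = 1.06e-05). The HCT116 call was lost on clone means and without WT clone 6. LRATD2, a protein-coding gene at the 5′ end of PCAT1, rose from 961 ± 91.0 to 1559 ± 451 in HCT116 (0.66, limma, adjusted p = 0.0384) and from 326 ± 51.0 to 1195 ± 306 in SW480 (1.85, limma, adjusted p = 1.67e-05). The HCT116 call of LRATD2 held in 12 of 22 alternatives, and the difference was 0.29 without KO clone 44. RNU1-106P, which lies within PVT1 and may share its reads, had 9.90 ± 3.40 and 19.3 ± 5.54 in SW480 (limma, adjusted p = 0.0439) and was called in 8 of 21 alternatives. In HT29 0 of the 4 were called by limma, edgeR or DESeq2, and 0 had an unadjusted limma p under 0.05.

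WNT target genes moved in the same libraries. Of 24 listed targets, MYC included, 16 were tested in HT29, with 5 lower and 0 higher in KO. In HCT116 7 of 18 were lower and 2 higher, and in SW480 15 of 21 were lower and 5 higher. Over all tested genes 2.56%, 14.0% and 48.1% were called in these lines. Their median log2 difference was −0.73, −0.59 and −1.99, beside 0.03, −0.01 and −0.0042 over all tested genes. AXIN2, a feedback inhibitor of the pathway, fell from 431 ± 118 to 10.5 ± 4.03 in HCT116. The HT29 calls of LGR5, AXIN2, TCF7 and EPHB2 held in 8 of 21, 10 of 22, 15 of 22 and 12 of 21 alternatives, and all 4 were lost with the clone as a random effect and on clone means. NKD1, another feedback inhibitor, fell from 14593 ± 880 to 224 ± 79.4 in SW480. For the members of this region the medians over those tested were 0.08, −0.91 and 0.25.

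Among 30 other long noncoding RNAs known from colorectal and other cancers, 25, 24 and 26 were tested in HT29, HCT116 and SW480. In HT29 0 were called by limma or edgeR and 1 by DESeq2, KCNQ1OT1, which was also the 1 with an unadjusted limma p under 0.05 and is named after its values were seen. In HCT116 4 were higher and 2 lower, and in SW480 3 were higher and 6 lower, beside the 14.0% and 48.1% called over all tested genes. NEAT1, the scaffold of paraspeckles, rose from 827 ± 189 to 1869 ± 561 in HCT116, a call that was lost on clone means (limma, adjusted p = 0.131) and without WT clone 6 (adjusted p = 0.0789). TINCR, an RNA of epidermal differentiation, fell from 94.2 ± 23.6 to 32.4 ± 10.5 in HCT116 and from 114 ± 30.5 to 27.7 ± 6.74 in SW480. DANCR fell from 3566 ± 333 to 1551 ± 99.0 in SW480, whereas LINC00460 rose from 19.6 ± 9.77 to 174 ± 42.6. The medians of this list were −0.03, 0.22 and 0.02.

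Genes most like each member were sought over the 12 clones, by the Pearson correlation of clone means of log2 values after the mean of the line had been subtracted, among 13028 genes tested in all lines. For CCAT1 they were FEM1B (0.91), EIF4EBP2 (0.89) and CAMKK2 (0.89). For CASC19 they were GRAMD2B (0.91), ANKRD46 (0.90) and THAP5 (0.90). CASC8 was most like BLOC1S5 (0.94), SNAPC1 (0.92) and RIDA (0.92), and PVT1 most like GNE (0.93), FEM1C (0.93) and LMLN (0.90). By the same measure CCAT1 and CASC19 had a correlation of 0.71 with each other, CCAT1 and CASC8 −0.05, and PVT1 and MYC −0.16. The 3 genes named per member were picked as the highest of all genes compared, and how high unrelated genes would reach was not tested. These values describe 12 clones that share libraries and size factors. For CCAT1 and CASC19 the 4 SW480 clones among them held 3 reads or fewer per library, so that 4 of the 12 points of these members, also in the search for alike genes, are at the floor.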

How the data were processed

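RNA from WT and KO clones of HT29, HCT116 and SW480 was sequenced as 24 libraries, prepared with a TruSeq RNA v2 kit. According to the submitters' processing notes, the authors aligned reads to GRCh37 with STAR 2.7.5b, counted them per gene with featureCounts 2.0.1 and used DESeq2 2.11.40.6. The annotation release and strand setting used for counting are not given in the sources used here. The values deposited by the authors are a normalized signal per gene and library, namely reads divided by 1 size factor per library. The authors also deposited a table per line with their fold changes and p-values, which were not used apart from the symbol of CCAT1. Whole reads were recovered from the steps of the values (tolerance 0.001, 100% of values whole), and 1 read was worth 0.917 to 1.30. A gene was at its floor with 3 reads or fewer in a library. Floors and intervals of read ratios cover counting error only.

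Symbols and positions came from GENCODE v44lift37, which named 95.8% of identifiers. The RefSeq table, on another assembly, served for gene order alone. No sequence is printed for this region.

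KO was compared with WT within each line using limma 3.58.1 with trend and robust variance on log2(value + 1), so that fold changes of low genes are understated. A gene was tested where 4 or more of the 8 libraries (of the 24 between lines) reached a value of 10. Calls had a Benjamini-Hochberg adjusted p under 0.05 over all genes tested. Clones within a genotype, KO effects between lines and WT levels between lines were tested likewise. Alternatives were pseudocounts of 0.1 and 5, other filters, TMM scaling, edgeR 4.0.16, DESeq2 1.42.0, the round as a block, the clone as a random effect, clone means, and each library and clone left out. For KO effects and WT levels between lines they were limited to the pseudocounts, a filter of 10 in every library, edgeR, the block and single libraries left out, and between clones to the pseudocounts and edgeR. R 4.3.3, Python 3.11.15 and matplotlib 3.10.9 were used.

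The rounds paired the libraries in HCT116, where the differences between rounds correlated by 0.182 to 0.374 in 6 of 6 pairs of clones. They did not in HT29 (2 of 6 over 0.1) or SW480 (1 of 6). This pairing comes from the data, since the labels give only the letters A and B.

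The members, lists and tests were chosen with earlier results of these data known. Named genes were the members, MYC, CTNNB1, called genes within 1500000 bases of MYC, examples with the largest change of a list of WNT targets and a list of other long noncoding RNAs, markers of epithelium, fibroblasts, leukocytes and endothelium, and the 3 genes most like each member. The examples of WNT targets and other long noncoding RNAs were taken among the 4 called genes with the largest absolute change per line.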

Additional observations from a re-analysis of the deposited data

Results flagged for a closer look

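CASC8 in the HT29 library KO 38B, at 647 normalized counts, lay far above the other HT29 KO libraries, which ran from 121 to 187. The gap took up 0.875 of the range of the group, above the 95% critical value of Dixon's test for 4 samples. This was 1 of 26 groups examined, and chance gives about 1 in 20. The same library had the lowest CCAT1 count of its line, at 153, and CASC19 count, at 76.5.

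The KO effect on CASC8 in SW480 exceeded that in HCT116 by 2.68 on the log2 scale (limma, adjusted p = 0.00845), with 4 of 4 SW480 KO libraries above all WT libraries and 3 of 4 HCT116 KO libraries below all WT libraries. WT and KO libraries were without overlap for 46.2% of all tested genes in SW480 and 20.5% in HCT116. The adjusted p ran from 0.00143 to 0.0269 over the pseudocounts, the stricter filter, edgeR, the block and single libraries left out, and no fit with the clone as the unit was run for differences between lines.

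The KO effect on MYC in SW480 was lower than that in HT29, with a difference of −0.72 (limma, adjusted p = 0.0177). All 4 SW480 KO libraries lay below all WT libraries, where the groups of 46.2% of all tested genes did not overlap. The adjusted p ran from 0.00413 to 0.0387 over the same alternatives.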

How the results depend on the processing

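Of 242 alternative values for KO against WT of the members, 211 kept direction and side of the threshold, 17 changed sign, all in HT29 and none with a call, 10 lost a call and 4 gained one. In HT29, CASC8 became −0.0031 with TMM scaling, and CCAT1 became 0.11 with edgeR and 0.099 with DESeq2. With a library or clone left out, the log2 difference in HT29 ran from −0.66 to 1.19 for CASC19, from −1.26 to 0.81 for CCAT1, from −0.63 to 0.72 for CASC8, from −0.18 to 0.41 for PVT1 and from −0.22 to 0.030 for MYC. In HCT116 it ran from −2.61 to −0.68 for CASC8, and in SW480 from 0.21 to 0.29 for PVT1 and from −0.94 to −0.40 for CASC11. CCAT1 in HCT116 ran from −1.20 to −1.01 and stayed called. On clone means CCAT1 in HCT116 was −1.10 and PVT1 in SW480 was 0.25, and neither was called, in a fit with 2 clones per group. PVT1 in SW480 was 0.25 and not called without a filter, with more genes tested, and with the clone as a random effect. With libraries left out, the WT level of CASC8 in SW480 minus HT29 ran from −0.033 to 0.33. With edgeR the difference of PVT1 between SW480 clones was 0.0090 in WT and −0.013 in KO. With the round as a replicate block, CCAT1 in HCT116 remained −1.11 (adjusted p = 0.00337), and the block ended the calls of MYC in HCT116, RNU1-106P in SW480 and AXIN2 and LGR5 in HT29 but changed no call of a member. Over all genes the calls in HT29 numbered 382 by limma, 1229 by DESeq2, 223 with the block, 234 among genes at 10 or more in every library, 121 with the clone as a random effect and 0 on clone means (858 at an unadjusted p under 0.05), so that the background in HT29 depends on the test. In HCT116 they numbered 2154, 1067 with the clone as a random effect and 425 on clone means, and in SW480 7857 and 3817 on clone means. With a library or clone left out they ran from 146 to 879 in HT29, from 1007 to 2879 in HCT116 and from 5689 to 8380 in SW480. CASC11 in SW480 rested on 13 to 33 reads per library and CASC19 in HCT116 on 13 to 32, and CCAT1 and CASC19 in SW480 could not be tested. The causes of these changes were not tested.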
